A study of Mus musculus with 3 samples.

Results

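The members of the set described here are 10 regulators of proliferation and survival in melanocytes, the pigment cells of the skin: Cdkn1a, Cdkn1b, Ccnd1, Cdk2, Cdk4, Cdk6, Myc, Bcl2, Tbx2 and Tbx3. They were taken by name, out of 22367 protein-coding genes, with earlier results of these data known. Their TFAP2A peaks were all those whose summit, the position of highest signal, lay in the gene body or within 100 kb of it. These windows held 71 of the 18528 peaks of replicate 1 and 72 of the 21459 peaks of replicate 2, a mean of 71.5 ± 0.707 (SD, n = 2), and 58 of the replicate 1 peaks were shared, which here means an overlap of 1 bp or more with a peak of replicate 2.

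TFAP2A was precipitated from chromatin of melan-a, a single immortalised mouse melanocyte line from normal embryonic skin, with the AP-2alpha (3B5) antibody, and the recovered DNA was sequenced (ChIP-seq). There were 2 ChIP replicates from independent experiments and 1 input sample, all untreated, of the genotype Cdkn2a tm1RDp/tm1RDp and grown with a phorbol ester and cholera toxin. The input was not used here. Cdkn2a, whose products inhibit Cdk4 and Cdk6 and, by blocking Mdm2, stabilise p53, is missing from the line and was left out. Sequencing depth could not be read from the lists, and they hold only regions past the peak caller's threshold, so a gene without a peak is a gene without a listed region.

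Cells pass from growth into DNA synthesis when cyclin D with Cdk4 or Cdk6, and then cyclins E and A with Cdk2, phosphorylate the retinoblastoma protein. The proteins of Cdkn1a and Cdkn1b block these kinases, and Myc promotes growth and entry into the cycle. Bcl2 protects mitochondria from pro-apoptotic proteins, and mice without it lose their hair melanocytes and turn grey. Tbx2 and Tbx3 are T-box repressors that help cells escape senescence. TFAP2 proteins bind GC-rich sites at promoters and at distal elements, and both kinds of place were compared here.

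The sequences that carry the comparison of promoter and distal binding are those under the summits. They are printed 5′ to 3′ on the plus strand of the reference genome (mouse build mm9, NCBIM37), and capitals mark the TFAP2 consensus GCCNNNGG on either strand. The first set shows the shared peaks at members' own promoters, taken as the stretch from 5 kb before to 1 kb after any transcription start site (TSS) of the gene. It holds 101 bases around the summit at Ccnd1 (chr7:152129341-152129441) and Myc (chr15:61815293-61815393). At Cdk4 (chr10:126500741-126500768) and Cdk6 (chr5:3344288-3344315), whose summits lay in annotated UTR sequence, it holds only the site nearest the summit.
Ccnd1: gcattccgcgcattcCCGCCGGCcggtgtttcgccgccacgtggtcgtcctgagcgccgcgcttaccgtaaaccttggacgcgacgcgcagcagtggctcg
Cdk4: ggtgtatggcGCCGCAGGaaccggctcc
Cdk6: agtccgactcCCCGAGGCgtgtaaggca
Myc: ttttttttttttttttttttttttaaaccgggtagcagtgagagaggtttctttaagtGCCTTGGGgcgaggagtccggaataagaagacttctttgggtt

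The second set shows the 5 shared distal peaks of highest enrichment, which lay in no annotated promoter, again as 101 bases around the summit. They were near Cdkn1a (chr17:29199746-29199846), Cdk6 (chr5:3555057-3555157), Cdkn1b (chr6:134910422-134910522), Bcl2 (chr1:108354646-108354746) and Tbx2 (chr11:85579868-85579968). The Cdk6 sequence held no TFAP2 consensus, and its capitals mark a match to the AP-1 site TGACTCA.
Cdkn1a: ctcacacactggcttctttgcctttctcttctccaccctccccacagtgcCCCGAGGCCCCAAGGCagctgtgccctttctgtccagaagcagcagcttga
Cdk6: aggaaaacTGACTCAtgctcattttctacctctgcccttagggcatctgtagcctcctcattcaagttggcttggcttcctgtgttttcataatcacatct
Cdkn1b: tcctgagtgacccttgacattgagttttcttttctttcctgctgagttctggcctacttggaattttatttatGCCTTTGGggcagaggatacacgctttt
Bcl2: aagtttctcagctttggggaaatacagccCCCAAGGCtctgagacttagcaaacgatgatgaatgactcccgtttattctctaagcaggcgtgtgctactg
Tbx2: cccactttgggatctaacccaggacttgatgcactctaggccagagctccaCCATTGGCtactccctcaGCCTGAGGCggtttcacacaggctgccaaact

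Each of the 10 genes had at least 2 shared peaks in its window, but 4 had one at its own promoter: Ccnd1, Cdk4, Cdk6 and Myc. That is 40.0% (95% exact binomial interval 12.2 to 73.8), beside 17.0% of all protein-coding genes under the same rule. A shared distal peak was present at 9 of the 10 genes, all but Myc, beside 57.4% of protein-coding genes. The median number of shared peaks per window was 4, with a range from 2 at Myc and Tbx3 to 12 at Cdkn1a, beside a median of 2 over protein-coding genes. Per Mb of window the medians were 19.4 and 8.16. These shares and medians are descriptions without a test, since peaks and genes are not replicates of a condition.

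**Figure D1:**
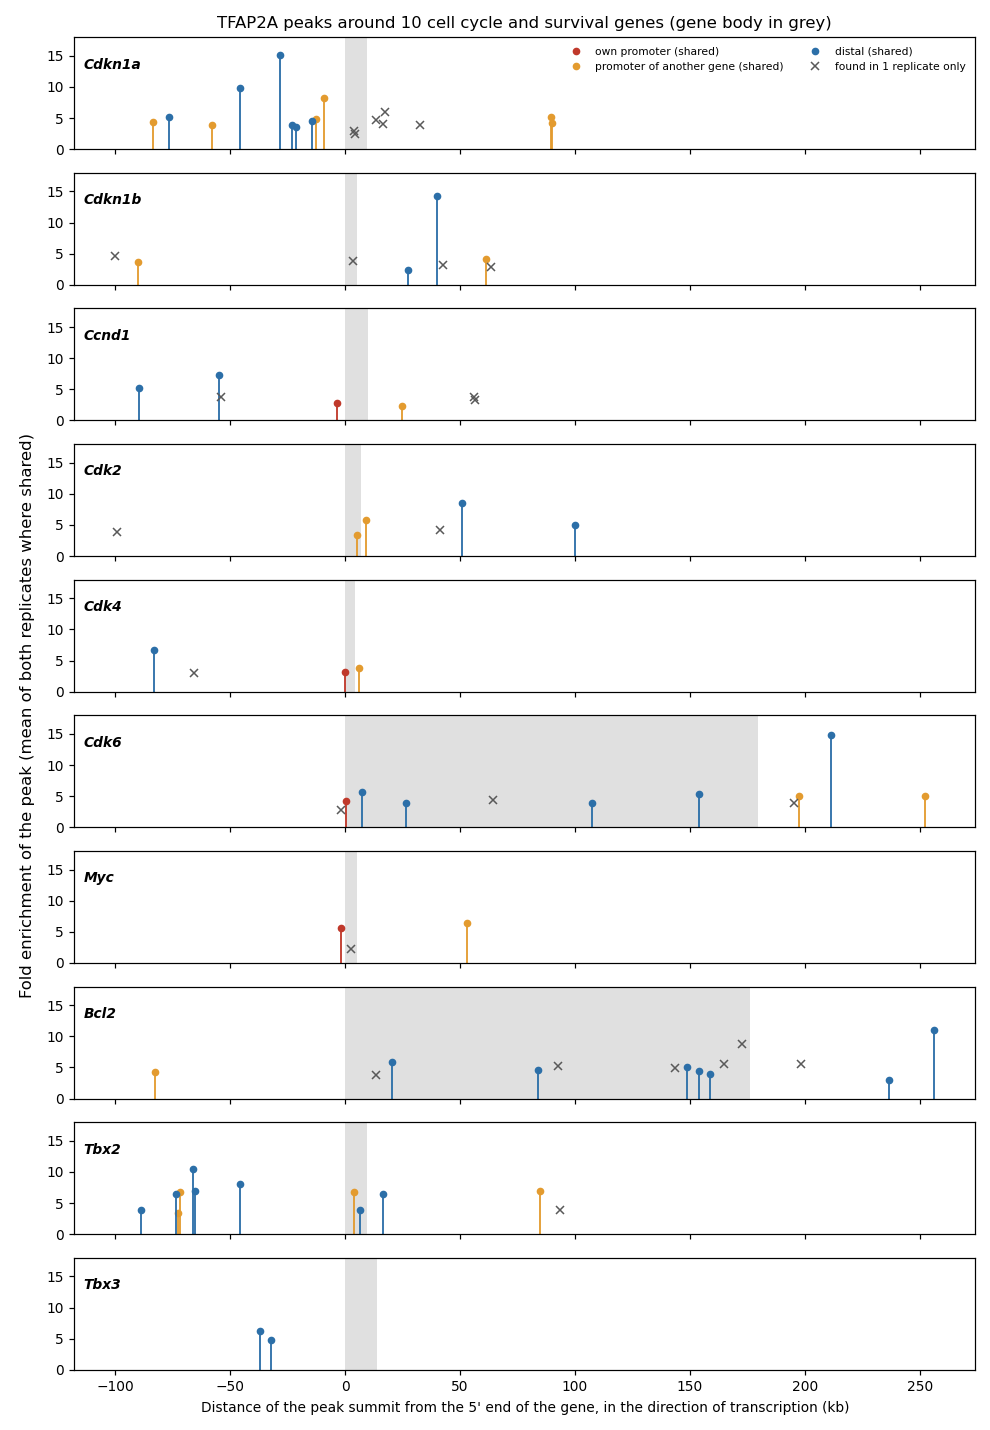
Each panel is 1 gene, with the distance of peak summits from its 5′ end in kb on the x axis and fold enrichment on the y axis; shared peaks are stems coloured by class (mean of both replicates, or the replicate 1 value for the 1 shared peak near Cdkn1a without a partner of its own), crosses are peaks of 1 replicate, and the gene body is grey. The tallest stems, near Cdkn1a, Cdkn1b, Cdk6 and Bcl2, stand away from the 5′ ends, while the stems at own promoters (Ccnd1, Cdk4, Cdk6 and Myc) stay at or below a mean of 5.69.

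Among the inhibitors, Cdkn1a (ENSMUSG00000023067.7, chromosome 17 from 29227924 to 29237667, plus strand) had the densest binding of the 10 genes. Its window held 57.2 shared peaks per Mb, and 0.416% of protein-coding genes had more. Of its 12 shared peaks, 10 lay upstream and the other 2 downstream, in an intron of Cpne5. By class, 6 were at promoters of other genes and 6 were distal. The strongest was at -28.1 kb, that is upstream of the TSS, from 29199234 to 29200467 in an intron of the noncoding model Gm16197, with a fold enrichment over background of 16.8 in replicate 1 and 13.4 in replicate 2. This was the highest mean of all the windows, 15.1 ± 2.42 (SD, n = 2), and 6.42% of the series' paired peaks had a higher mean. Its 2 adjacent TFAP2 sites begin at the summit in the sequence printed for Cdkn1a.

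Another distal peak of Cdkn1a lay at -45.8 kb, with 9.51 in replicate 1 and 10.0 in replicate 2. The peak nearest to the TSS, at -9.01 kb in a promoter of Gm16197, had 6.72 and 9.80. The other shared peaks of Cdkn1a were weaker, with means from 3.56 to 5.21, apart from the one without a value in both lists. The promoter itself had no shared peak. Replicate 1 alone had 2 weak peaks there, with enrichments of 2.89 and 2.43, both in an intron, and 3 more just past the gene, with 4.11 to 5.98. Replicate 2 listed no peak in that stretch, so the binding in and just after the gene rested on replicate 1.

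Cdkn1b (ENSMUSG00000003031.8, chromosome 6 from 134870419 to 134875531, plus strand) had 4 shared peaks, none at its promoter. A single one stood out, 40.1 kb downstream of the TSS between genes, from 134910109 to 134910708, with 13.0 in replicate 1 and 15.7 in replicate 2 (mean 14.3 ± 1.91, n = 2). The other 3, at the promoters of Crebl2 and Apold1 and at 27.3 kb, had means from 2.33 to 4.14. All 4 held a TFAP2 site within 50 bp of the summit. The nearest TSS of a protein-coding gene to the strong peak was that of Apold1 and not that of Cdkn1b. Replicate 2 alone had a peak inside the gene, 3.57 kb past the TSS, with 3.82.

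Among the cyclin and the kinases, Ccnd1 (cyclin D1; ENSMUSG00000070348.4, chromosome 7 from 152115836 to 152125774, minus strand) had 4 shared peaks, all with a TFAP2 site. The one at its promoter, from 152129172 to 152129571 with its summit at -3.62 kb, had an enrichment of 3.00 in replicate 1 and of 2.63 in replicate 2 (mean 2.82 ± 0.263, n = 2). Farther upstream, at -54.7 kb, a peak with 3 sites had 9.04 in replicate 1 and 5.46 in replicate 2, and a peak at -89.4 kb had 5.41 and 4.97. The promoter peak was weaker than both upstream peaks in each replicate, and stronger than the remaining one, at the promoter of Oraov1 23.2 kb downstream, which had 2.51 and 2.08.

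Cdk4 (ENSMUSG00000006728.6, chromosome 10 from 126500590 to 126504976, plus strand) had a shared peak at its TSS, from 126500671 to 126500910, whose summit lay 66 bp past the TSS in the UTR. Its enrichment of 3.34 in replicate 1 was close to the 3.14 in replicate 2, and the same place counts as the promoter of the neighbour March9. The strongest peak of this window, with 6.99 and 6.43, was at -82.9 kb in an intron of Ctdsp2. Cdk6 (ENSMUSG00000040274.5, chromosome 5 from 3343893 to 3523218, plus strand) also had a peak across its TSS, from 3343798 to 3344514, with 3.94 and 4.66 and 3 TFAP2 sites. Of the other 7 shared peaks of Cdk6, 4 lay in its introns, with means from 3.86 to 5.66. The strongest, 210.8 kb past the nearest TSS of Cdk6 and beyond the gene in an intron of Fam133b, had 15.0 in replicate 1 and 14.6 in replicate 2 (mean 14.8 ± 0.217, n = 2), higher than the Cdk6 promoter by 3.79-fold and 3.14-fold in the replicates.

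Cdk2 (ENSMUSG00000025358.9, chromosome 10 from 128134995 to 128142107, minus strand) had 4 shared peaks and none at its own promoter. A peak in its intron, at 5.36 kb, lay in the promoter of the neighbour Rab5b and had 3.32 in replicate 1 and 3.29 in replicate 2. The strongest was 51.0 kb past the TSS between genes, with 7.78 and 9.28. No shared peak of this window had Cdk2 as its nearest protein-coding TSS.

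**Figure D2:**
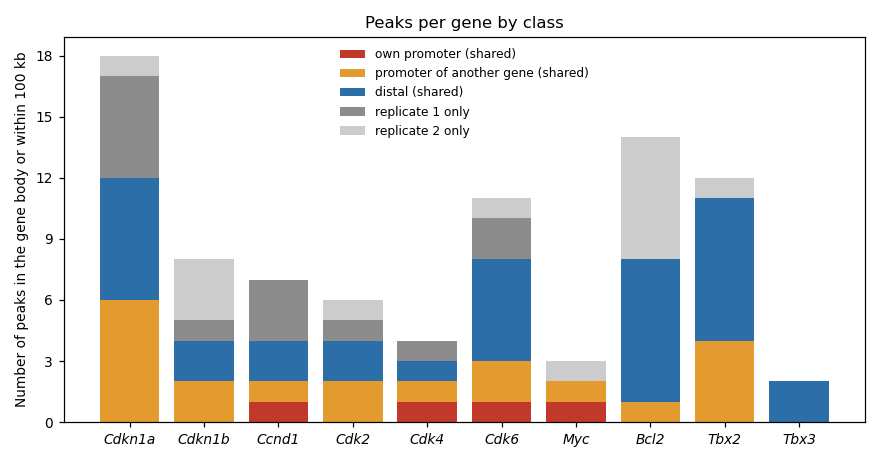
The y axis gives the number of peaks in the gene body or within 100 kb for each gene on the x axis, stacked by class for shared peaks and by replicate for peaks found once. Cdkn1a, Tbx2, Cdk6 and Bcl2 have 8 or more shared peaks, and own promoter peaks appear at 4 genes, 1 each.

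Myc (ENSMUSG00000022346.8, chromosome 15 from 61816946 to 61821929, plus strand) had 2 shared peaks. At its promoter, from 61815106 to 61815522 with the summit at -1.60 kb, enrichment was 5.32 in replicate 1 and 6.06 in replicate 2. With a mean of 5.69 ± 0.524 (n = 2) it was the strongest own promoter peak of the 10 genes. The other, at the promoter of the noncoding gene Pvt1 51.2 kb downstream, had 6.52 and 6.29. Myc was the gene without a shared distal peak. When only TSSs of protein-coding transcripts defined promoters, all 10 genes had one. The share of all protein-coding genes with a distal peak was not recounted under that rule.

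Bcl2 (ENSMUSG00000057329.6, chromosome 1 from 108434755 to 108610851, minus strand) showed the opposite arrangement, with 7 distal peaks and none at its promoter. Of these, 5 lay in its introns, 20.3 to 158.6 kb past the TSS, with means from 3.96 to 5.83, and none of the 5 had a TFAP2 site within 50 bp of the summit. The strongest was beyond the end of the gene, 256.2 kb past the TSS, from 108354378 to 108354965, with 8.49 in replicate 1 and 13.7 in replicate 2 (mean 11.1 ± 3.66). Bcl2 was also where the lists differed most, since replicate 2 had 14 peaks and replicate 1 had 8. All 8 were shared, and 6 were in replicate 2 only. The strongest peak of any window found in replicate 2 only was 1 of these 6, with 8.69, at the promoter of the gene model D630008O14Rik near the end of Bcl2, whereas the strongest in replicate 1 only, near Cdkn1a, had 5.98.

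Tbx2 (ENSMUSG00000000093.6, chromosome 11 from 85646053 to 85655450, plus strand) had 11 shared peaks, or 52.5 per Mb, and 0.697% of protein-coding genes had more per Mb. All 11 peaks of replicate 1 were shared, and 7 of them lay between -88.6 kb and -45.8 kb in introns of the neighbour Bcas3. The strongest of this group, at -66.1 kb from 85579626 to 85580285, had 11.3 in replicate 1 and 9.78 in replicate 2 (mean 10.5 ± 1.06). A peak in the gene itself, at 3.78 kb and in the promoter of the gene model 2610027K06Rik, had 6.96 and 6.43. A distal peak in the gene, at 6.6 kb, had 3.96 and 3.72. A TFAP2 site was held by 8 of the 11. Tbx3 (ENSMUSG00000018604.11, chromosome 5 from 120120678 to 120134733, plus strand), its close relative, had only 2, at -36.8 kb and -32.2 kb, and none at the promoter or in the gene. Their enrichments were 6.38 and 6.05 for the first and 5.27 and 4.22 for the second, in replicates 1 and 2.

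The windows end at 100 kb, and this edge is a choice. The shared peak nearest to an edge on the outside was 100.01 kb from Cdk4 (mean 6.45), and the outermost shared peak inside was 92.8 kb from Cdk2 (mean 5.07).

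Over all windows the 58 shared peaks comprised 4 at own promoters, 20 at promoters of other genes and 34 distal peaks. They lay in introns of a member in 12 cases, in introns of another gene in 23 and between genes in 18, and the member was the gene with the nearest protein-coding TSS for 24. A peak in a window need therefore not belong to the member, and which gene a distal peak acts on was not tested.

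Distal peaks had the higher median enrichment. The own promoter peaks had a median of 3.64 in replicate 1, with values from 3.00 to 5.32, and of 3.90 in replicate 2, with values from 2.63 to 6.06. The 34 distal peaks had medians of 5.13 and 5.65 and reached 16.8 and 15.7. The ratio of the medians was 1.41 in replicate 1 and 1.45 in replicate 2, a log2 ratio of 0.51 ± 0.03 (SD, n = 2). This was larger than the spread between replicates but rests on 4 promoter peaks. It also moved beyond that spread with the settings, to 0.269 with -log10 p in place of fold enrichment and to 0.311 with 10 kb windows. The ranges overlapped, with 10 distal peaks above every own promoter peak in both replicates. Against the promoters of any gene (23 peaks with a value in both lists) the log2 ratio was 0.25 ± 0.02. Against the promoters of other genes alone (19 peaks) it was 0.14 ± 0.10, with ratios of 1.05 in replicate 1 and 1.16 in replicate 2. Over all paired peaks of the series the log2 ratio against promoters of any gene was 0.34 ± 0.02.

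The strongest distal peak of a gene was also set against its own promoter peak. At Ccnd1, Cdk4 and Cdk6, the 3 genes with shared peaks of both classes, the strongest distal peak exceeded the own promoter peak by between 2.07-fold and 3.01-fold at Ccnd1, by 2.05-fold and 2.10-fold at Cdk4 and by 3.14-fold and 3.79-fold at Cdk6, the 2 values being those of the replicates. The strongest distal peak is a maximum over several at Ccnd1 and Cdk6, which raises this ratio. Not every distal peak was the higher one, since those of Cdk6 at 26.1 kb (3.96 in replicate 1 and 3.76 in replicate 2) and 106.9 kb (5.37 and 2.50) were below its promoter peak (3.94 and 4.66) in replicate 2, though not in replicate 1.

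**Figure D3:**
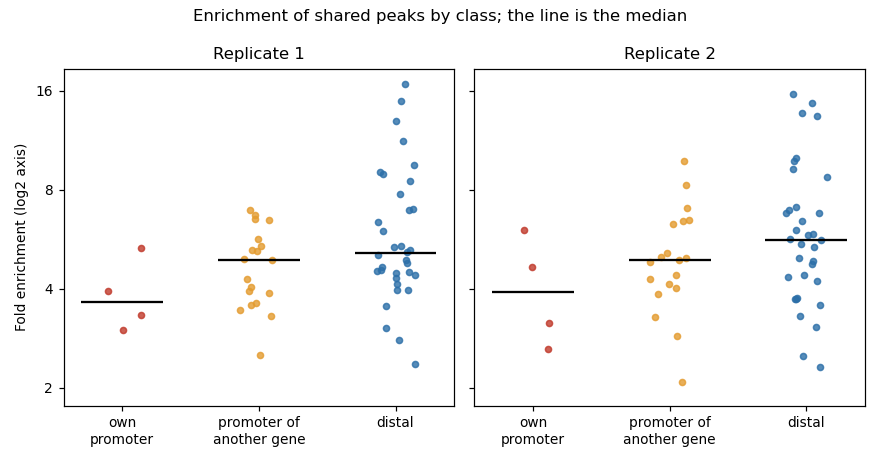
Each point is a shared peak with a value in both lists, with its class on the x axis and its fold enrichment on a log2 y axis, for replicate 1 (left) and replicate 2 (right); lines are medians. The 4 own promoter points lie between 2.63 and 6.06, while the distal points range from 2.31 to 16.8.

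Sequence at the summits was then compared. Of the 58 shared peaks, 33 held the consensus GCCNNNGG on either strand no more than 50 bp from the summit, or 56.9% (43.2 to 69.8), while 14.7% of equally long flanks, centred 400 bp away, held it. The excess at replicate 1 summits was 42.2 percentage points, and at replicate 2 summits it was 49.1. Over all 16099 shared peaks of the assembled chromosomes the shares were 57.1% and 15.3%. All 4 own promoter peaks held the site (39.8 to 100), beside 10 of 20 peaks at promoters of other genes and 19 of 34 distal peaks, or 55.9% (37.9 to 72.8). Promoter peaks of any gene, 58.3% (36.6 to 77.9), were within 2.45 percentage points of distal peaks, which is inside the counting intervals, and at replicate 2 summits the counts were 18 of 24 and 20 of 34, again with intervals that overlapped. The difference between own promoters and distal peaks turned around with the longer consensus GCCNNNGGC, as none of the 4 own promoter peaks and 7 of the 34 distal peaks held it.

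Base composition also differed between the classes. The median GC content of the 101 bases around the summit was 69.3% at own promoters, 54.0% at promoters of other genes and 49.5% at distal peaks, with medians of 12, 3 and 1 CpG. The Myc promoter peak was unlike the other 3 own promoter peaks in this, at 37.6% GC and 3 CpG. The share of flanks with the consensus was 18.8% around promoter peaks of any gene and 11.8% around distal peaks at replicate 1 summits, and 16.7% and 16.2% at replicate 2 summits. Whether base composition plays a part in the site counts was not tested.

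**Figure D4:**
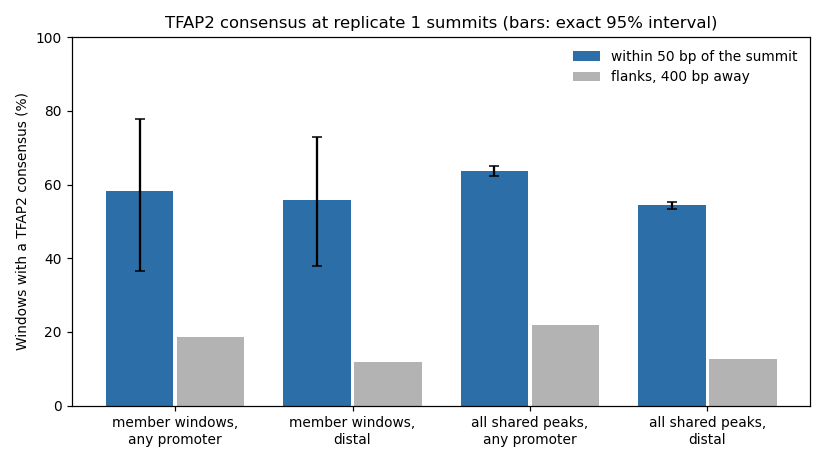
The y axis gives the percentage of windows with the TFAP2 consensus within 50 bp of replicate 1 summits (blue, with exact 95% intervals) and in flanks 400 bp away (grey), for promoter and distal peaks in the windows of the 10 genes (member windows) and over all shared peaks on the x axis. The blue bars of the gene windows, 58.3% and 55.9%, have intervals that overlap each other, and all 4 grey bars are below 22%.

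Distal peaks with a site had the higher median enrichment. In 19 of them with the consensus the median was 6.96 in replicate 1 and 6.05 in replicate 2, and in 15 without it 4.47 and 4.87. The site nearest to the summit lay a median of 8.5 bp from it in these 19 peaks, and within 20 bp in 14. The exception among the strongest was the peak beyond Cdk6, with a mean of 14.8 and no TFAP2 consensus.

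Agreement between the replicates was then counted at these genes. Of the replicate 1 peaks in the windows, 81.7% were shared (70.7 to 89.9), and of the replicate 2 peaks 80.6% (69.5 to 88.9), beside 87.1% and 76.0% of all peaks. Pairs were formed where 2 peaks overlapped each other more than any further peak, and in the 57 pairs the enrichment of replicate 2 over that of replicate 1 had a median of 1.00. Only 1 pair differed by more than 2-fold, in an intron of Cdk6 (5.37 and 2.50). Summits lay a median of 29 bp apart. Peaks found in 1 list only were weaker, with medians of 3.70 against 4.88 for shared peaks in replicate 1 and 4.28 against 4.99 in replicate 2.

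**Figure D5:**
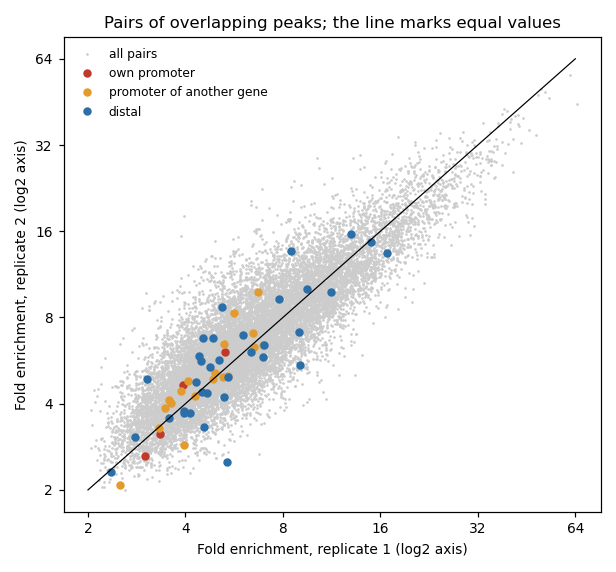
Fold enrichment of paired peaks in replicate 1 (x axis) and replicate 2 (y axis), both on log2 axes, for the gene windows (coloured by class) and all pairs of the series (grey); the line marks equal values. The coloured points spread over much of the grey cloud, with a median mean enrichment of 5.07 (quartiles 3.93 and 6.69) beside a median of 6.23 for all pairs, and a mean of 10 is reached by 5 of the 57 and by 3129 of all 16034 pairs.

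Other genes of the same pathways were counted by the same rule, in a list of 30 that did not include the 10. This list too was chosen with earlier results of these data known. A shared peak at the own promoter was found at 12 of 30, or 40.0% (22.7 to 59.4), beside the 17.0% of protein-coding genes given above, and a shared distal peak at 23 of 30, beside 57.4%. The median number of shared peaks per window was 2, the same as over protein-coding genes, and Cdk1 and Pmaip1 had none. Own promoter peaks in this list had means from 2.89 to 9.11 with a median of 4.58. The strongest was at Bcl2l11, which encodes the pro-apoptotic protein Bim, with 9.35 in replicate 1 and 8.87 in replicate 2. Next came Ccna2 (cyclin A2), with 8.57 and 9.44, and Bbc3, which encodes the pro-apoptotic Puma, with 8.21 and 7.27. Trp53, the gene of p53, had 4.74 and 6.69, and Max, the partner of Myc, had 5.71 and 5.19. The promoter peaks of Bcl2l11, Ccna2 and Bbc3 were higher than each of the 4 own promoter peaks of the 10 genes in both replicates.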

How the data were processed

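Each ChIP replicate had a peak list of its own, deposited without pooling. The submitters' processing notes name BWA, MACS 1.4.2 and build mm9, without settings. The lists have the narrowPeak layout with q-values, which later MACS versions write, so the version that made them, and with it the exact definition of their enrichment and q-value columns, is uncertain. For each peak the deposited values are a fold enrichment (a ratio over background), the -log10 of a p-value and of a q-value, and a score, which in every row was 10 times the -log10 p without its decimals and was not used. The summit offset (other) is deposited in bp.

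Peaks were assigned by their summits to genes of GENCODE mouse version 1 on NCBIM37. Promoters ran from 5 kb before to 1 kb after each annotated TSS, and distal peaks lay in no promoter of any gene. The 2 promoter distances are those of the study's gene assignment, while the use of every annotated TSS was a choice made here. Shared peaks overlapped by at least 1 bp, as in the study's methods, and are the replicate 1 peaks with their summits. The 95% intervals are exact (Clopper-Pearson) and hold counting error alone. No test was run, since there was 1 condition with 2 replicates. All 10 members were named, with the strongest shared own promoter and distal peak of each, the strongest peak found in 1 replicate only and the 5 strongest promoter peaks of the pathway list. The members and lists were chosen with earlier results of these data known. Alternatives for the peak threshold, overlap, window, promoter, site and replicate are given in the closing section. Python 3.11.15, numpy 2.4.6, scipy 1.17.1, pandas 2.3.3, pysam 0.24.0, matplotlib 3.10.9 and samtools 1.23.1 were used, and the scripts were tested on simulated data.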

Additional observations from a re-analysis of the deposited data

How the results depend on the processing

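Peak counts cover 2 libraries of unknown depth, and 4 own promoter peaks carry the promoter comparison. Keeping the upper 50% of each list by enrichment left 17 shared peaks (58 as deposited), of which 0 were at an own promoter, so neither comparison of own promoters with distal peaks could be made. It gave a site excess of 55.88 points and 89.47% of replicate 1 peaks shared. Windows of 50 kb and 10 kb held 36 and 20 shared peaks, and with 10 kb 3 genes had a distal one. Promoters of 1 kb on each side of the TSS left 2 genes with a promoter peak, Cdk4 and Cdk6. For none of the alternatives was the share of all protein-coding genes recounted.

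The log2 ratio of distal to own promoter enrichment (0.51) stayed above 0 in each alternative that gave a value. It was 0.544 with a -log10 q of at least 5, 0.475 with 50 kb, 0.311 with 10 kb, 0.553 with TSSs of protein-coding transcripts, 0.246 with promoters of any gene, 0.269 with -log10 p, and 0.669 and 0.691 in either list alone. The excess of sites over flanks (42.24 points) was 36.11 with 50 kb, 30 with 10 kb, 18.1 with GCCNNNGGC, and 40.85 and 50.0 in either list alone. The site share at own promoters minus that at distal peaks (44.12 points) was 52.17 with 50 kb, 72.73 with 10 kb, 39.53 with 1 kb promoters, 46.51 with protein-coding transcripts, 2.451 with promoters of any gene, 32.35 with 100 bp to each side, 34.49 and 39.13 in either list alone, and -20.59 with GCCNNNGGC. The shared percentage (81.69) was 78.26 with -log10 q of at least 5, 77.46 with a reciprocal overlap of 50%, 74.65 with summits within 100 bp, 80.0 and 76.92 with 50 kb and 10 kb, and 80.56 from replicate 2. The cause of these differences was not tested. The genes with a promoter peak numbered 4 or 5, and those with a distal peak 9, in either list alone.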

Other observations

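Consensus letters of AP-1, TEAD, SOX, MITF (M-box) and E-box factors were counted at the summits around these genes. Within 50 bp of the 58 shared summits, AP-1 sites (TGACTCA or TGAGTCA) were in 2 peaks, TEAD sites (GGAATG) in 5, SOX sites (ACAAAGG or ACAATGG) in 1, the M-box TCATGTG in 2 and the E-box CACGTG in 1, all counted on both strands. Over all 16099 shared peaks the shares were 6.36%, 10.5%, 5.21%, 2.01% and 1.78%. The exact 95% intervals of the counts here hold these shares but are wide, from 0.420 to 11.9 for AP-1 and from 0.0436 to 9.24 for SOX. Counts this small cannot show whether the shares were alike. In the flanks of all shared peaks the M-box was in 1.72% and the E-box in 1.42%. The AP-1 sites were in the peak beyond Cdk6 and in the peak at -32.2 kb from Tbx3. The E-box lay in the Ccnd1 promoter peak, which also held a TEAD site, and the M-boxes in an intron of Cdk6 at 153.6 kb and at -88.6 kb from Tbx2. A control string with the letters of the TFAP2 consensus in another order, CGGNNNCG, was in 5 of the 58, or 8.62% (2.86 to 19.0), and in 5.93% of all shared peaks. In flanks it was in 3.45% and 4.07%, where the TFAP2 consensus was in 14.7% and 15.3%. The control was thus the rarer string away from summits too, and its counts are no matched background.

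Median enrichments by distance from the nearest TSS of the member spanned 4.76 to 5.07 in replicate 1 and 5.05 to 5.68 in replicate 2 beyond 5 kb. Within 1 kb, 2 shared peaks had lower medians of 3.64 and 3.90, and between 1 and 5 kb 4 had 4.44 and 5.09. Between 5 and 20 kb, 8 shared peaks had medians of 4.76 and 5.68, between 20 and 50 kb 12 had 5.07 and 5.14, between 50 and 100 kb 22 had 4.98 and 5.36, and past 100 kb 10 had 5.01 and 5.05. All those past 100 kb were around Cdk6 and Bcl2, the longest of the 10 genes, so this last group does not cover the other members.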
